A study of Mus musculus with 8 samples.

Results

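Among the 19938 genes measured in mouse splenic macrophages, 10 that encode subunits of heterotrimeric G proteins were followed across 4 hemophagocyte arrays and 4 resting macrophage arrays. They were the gamma subunit genes Gng2, Gng5, Gng10, Gng11 and Gng12, the beta subunit genes Gnb1, Gnb2 and Gnb4, and the inhibitory alpha subunit genes Gnai2 and Gnai3. Each was found by its symbol in the platform annotation, and where a gene had several probe sets the brightest over all 8 arrays was to be used. Each of the 10 had 1 probe set, so that step made no choice. The set was drawn around Gng5, which had the smallest p-value of all genes in the comparison of hemophagocytes with resting macrophages. The values of Gng5 in that comparison are therefore given as a description, without a test.

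A heterotrimeric G protein passes a signal from a receptor in the plasma membrane to enzymes and channels inside the cell. The alpha subunit holds GDP at rest and takes up GTP when the receptor is engaged, and the beta and gamma subunits stay together as a dimer that signals once it is freed. Gamma subunits are small proteins that carry a lipid tail, which holds the dimer at the membrane. In macrophages, receptors for chemokines and for complement anaphylatoxins act largely through Gi, the class of alpha subunits that inhibits adenylyl cyclase.

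Hemophagocytes are macrophages that have engulfed blood cells. Their donors were male C57Bl/6j mice of wild type genotype, aged 8 weeks, which received 37.5 ug of CpG1826, an oligonucleotide agonist of TLR9, with 200 ug of antibody clone 1B1.3A, which blocks the IL-10 receptor, in 4 intraperitoneal doses given on alternate days. Resting macrophages came from mice of the same genotype, strain, sex and age that received 200 uL of PBS on the same schedule. In both groups laser capture took 20 target cells per mouse from touch preparations of the spleen, and the cells were pooled. The labels do not say how many mice stand behind an array, so the spread between arrays may be partly technical. Macrophages of treated mice without engulfed cells were not analysed here, so engulfment, CpG1826 and the antibody cannot be told apart. In pooled cells, more cells of a type and more RNA per cell cannot be told apart either.

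All levels are log2 signals, and a change is the hemophagocyte mean minus the resting mean on that scale. The arrays had medians of 6.10 to 6.17. Hemophagocytes 3 and 5 stood apart, since 154 and 159 of their genes exceeded by more than 1 log2 unit the median of that gene across arrays, against 7 to 30 genes on each of the others. The macrophage label was checked on 14 marker genes against 1194 olfactory and vomeronasal receptor genes, which serve sensory neurons and were taken as a measure of array background. The lysosomal glycoprotein Cd68 exceeded the 95th percentile of the receptor genes on hemophagocytes 3 and 5 (9.66 and 10.52, against 7.21 to 7.50 elsewhere), Hmox1 on hemophagocyte 5 and Timd4 on resting macrophage 4. The other 11 markers, among them Adgre1 and Csf1r, exceeded it on no array. Probes differ in brightness, so this is not a call of presence or absence.

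Gng5 was higher on every hemophagocyte array than on any resting array. It read 7.57, 7.33, 7.80 and 7.72 on hemophagocytes 2, 3, 5 and 6, and 6.16, 5.97, 6.12 and 5.87 on resting macrophages 3, 4, 5 and 6. The lowest hemophagocyte value lay 1.17 log2 units above the highest resting value, and the SD within the groups was 0.21 and 0.13 (n = 4 each). The hemophagocyte arrays were not unusually close, since 81.4% of all genes had a smaller SD over them than Gng5. The change was 1.58 (95% interval 1.33 to 1.82). Gng5 was chosen on these arrays, which neither this interval nor the ranks that follow take into account. Of all genes only Saa3, an acute phase protein made by activated macrophages, had a wider gap between its groups, at 1.66. A total of 26 genes had a larger change than Gng5, and in 18 of them the groups overlapped. Of the hemophagocyte arrays that stood apart, array 3 held the lowest and array 5 the highest of the 4 Gng5 values, and the change without both was 1.62. Among the receptor genes of the same array, Gng5 lay between percentiles 35.6 and 49.7 on resting arrays and between 93.8 and 96.0 on hemophagocyte arrays. The receptor genes were themselves lower in hemophagocytes, with a median change of -0.15, against -0.04 for all genes. The resting values were not above this background, so the change in signal was not read as the size of a change in transcript level.

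**Figure D1:**
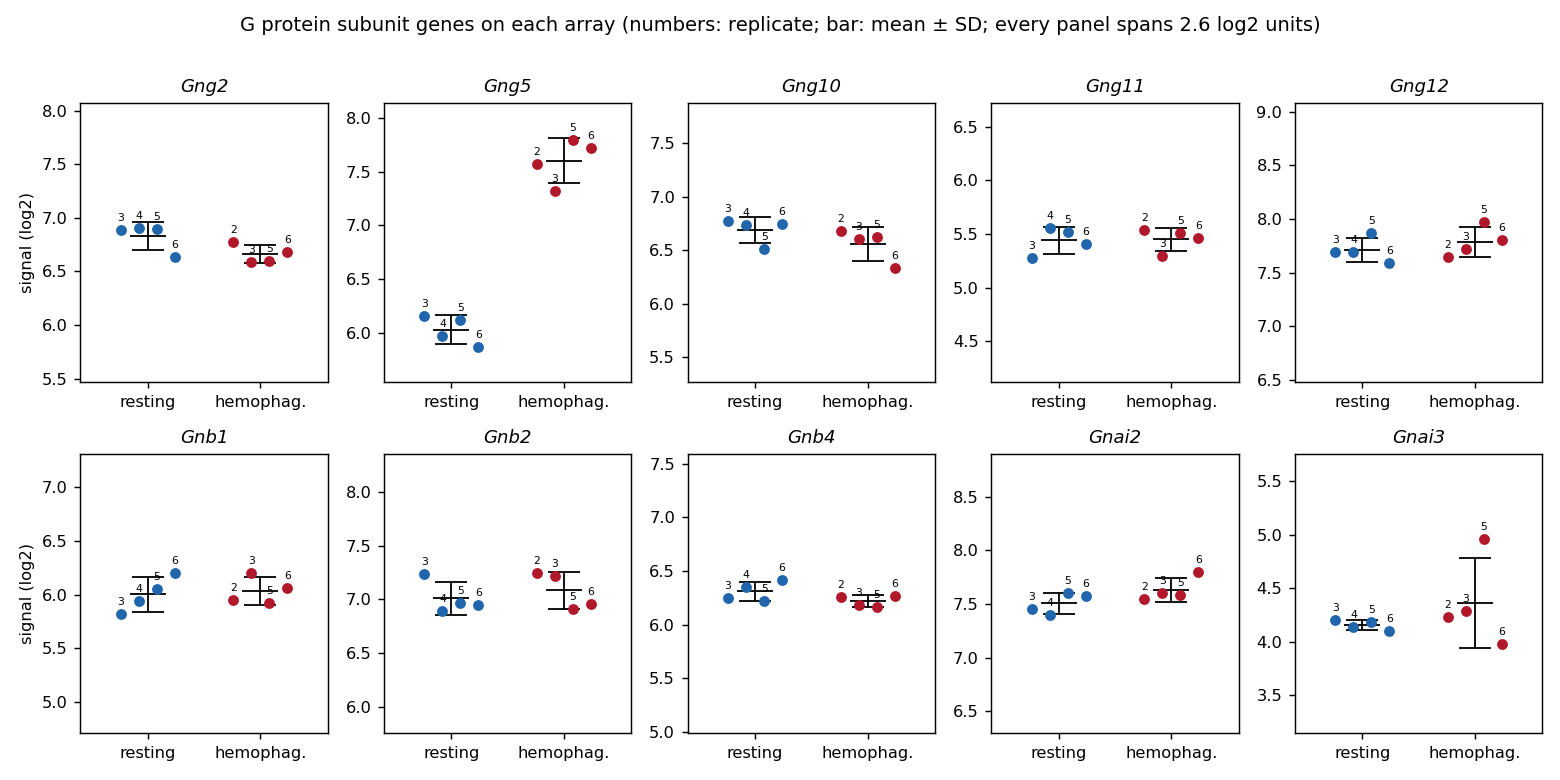
Log2 signal of the 10 G protein subunit genes on each array (blue, resting macrophages; red, hemophagocytes; numbers are replicate numbers; bars are mean ± SD, n = 4 per group; every panel spans the same number of log2 units). Gng5 is the gene whose groups separate, with resting arrays at 5.87 to 6.16 and hemophagocyte arrays at 7.33 to 7.80, and in the other 9 genes the groups overlap.

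What the Gng5 probe set reads has a limit of its own. The platform annotation assigns probe set 10434672 to Gng5, a gene of chromosome 3, and RefSeq also lists a transcribed pseudogene, Gng5-ps, on chromosome 16. Probe set numbers on this array mostly run along the chromosomes. Of the 10 annotated probe sets nearest in number to that of Gng5, 0 belonged to genes of chromosome 3 and 7 to genes of chromosome 16. The nearest chromosome 16 genes on either side were Senp2 and Dnajb11, and Gng5-ps lies between them. For each of the other 9 subunit genes, 7 to 10 of the 10 nearest probe sets belonged to genes of the same chromosome. The probe sequences were not used here, so transcripts of Gng5 and of Gng5-ps cannot be told apart, and "Gng5" below stands for what this probe set measured.

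The sequence before the start of the chromosome 3 gene is shown because Gng5 is the subunit gene whose groups separated. Whether the probe set read that gene is not known, so no account of the signal is drawn from the sequence. RefSeq (GRCm38.p6) places it at chr3:146499586-146499835 on the plus strand, and it is printed 5′ to 3′ up to the base before the transcript's start, with GC boxes (GGGCGG or its complement CCGCCC) in capitals.
Gng5 upstream: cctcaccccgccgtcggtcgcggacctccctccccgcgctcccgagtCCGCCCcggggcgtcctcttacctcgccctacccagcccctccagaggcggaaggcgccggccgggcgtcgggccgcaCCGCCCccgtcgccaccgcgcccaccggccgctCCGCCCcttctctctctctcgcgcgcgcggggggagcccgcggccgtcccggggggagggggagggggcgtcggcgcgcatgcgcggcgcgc
It held 3 GC boxes, which bind the factor Sp1, all on the minus strand. It had 82.4% G and C and 44 CG pairs, against medians of 52.4% and 6 over 32851 RefSeq promoter windows of the same length. At least 1 GC box stood in 32.7% of those windows and in those of 4 of the 7 subunit genes listed (Gnb1, Gng5, Gng10 and Gng12). Other motifs were searched on both strands. The letters of the NF-kappaB site by its usual consensus stood in 7.25% of windows, of the interferon gamma-activated site (TTCNNNGAA) in 7.02% and of the interferon-stimulated response element core (GAAANNGAAA) in 2.98%, and the Gng5 window held 0 of these. The NF-kappaB letters were found at Gnai3 and Gnb1 and the gamma-activated site at Gng10. No match says only that these letters are not in this window.

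Of the 10 subunit genes, limma called 1 higher, Gng5, and 0 lower, where 0.01% of all genes were called higher and 0% lower. Since Gng5 was chosen on that comparison, nothing is read from this count. The groups did not overlap in 1 of the 10 with hemophagocytes above, again Gng5, and in 0 with hemophagocytes below, against 0.802% and 2.9% of all genes. The other 9 genes had changes of -0.17 to 0.21 and limma adjusted p from 0.75 to 0.99, and 0 of them reached an unadjusted p under 0.05. Their 95% intervals ran from -0.35 at the lowest to 0.58 at the highest. Of these 9 changes, 6 were above 0 and 3 below, where 36.1% of all genes lay above 0 and the median of all genes was -0.04.

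Among the 10 genes, the other gamma subunits gave no counterpart to the Gng5 values. Gng2, a gamma subunit abundant in leukocytes and brain, read 6.77, 6.59, 6.60 and 6.69 on hemophagocytes 2, 3, 5 and 6 and 6.89, 6.90, 6.90 and 6.64 on resting macrophages 3, 4, 5 and 6. Resting macrophage 6 alone brought the groups into overlap, and the change of -0.17 (95% interval -0.35 to 0.01) did not pass (limma adjusted p = 0.75). Gng10, a widely expressed subunit, read 6.68, 6.60, 6.63 and 6.33 on hemophagocytes and 6.77, 6.74, 6.51 and 6.75 on resting macrophages in the same order. Its hemophagocyte values lay mostly below the resting ones, with overlap at resting macrophage 5, and its change was -0.13 (95% interval -0.34 to 0.08).

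Gng11 and Gng12 are best known from cells other than leukocytes, Gng11 from endothelium and platelets among them. Gng11 lay between 5.30 and 5.53 on hemophagocyte arrays and between 5.27 and 5.56 on resting arrays, a change of 0.01 (95% interval -0.18 to 0.20). Gng12 lay between 7.65 and 7.97 and between 7.59 and 7.86, a change of 0.07 (95% interval -0.13 to 0.27). In both genes the groups covered nearly the same range. Gng11 lay between percentiles 26.4 and 31.4 of the receptor genes on hemophagocyte arrays and between 23.9 and 26.5 on resting arrays.

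Beta subunits form the dimer with the gamma subunits. The signals of the beta subunit genes did not differ between the groups beyond the spread of the arrays. Gnb1, a widely expressed beta subunit, lay between 5.92 and 6.20 on hemophagocyte arrays and between 5.81 and 6.20 on resting arrays (change 0.03, 95% interval -0.19 to 0.25). Gnb2, the other beta subunit common in leukocytes, read 7.24, 7.22, 6.91 and 6.96 on hemophagocytes 2, 3, 5 and 6 and 7.24, 6.89, 6.96 and 6.94 on resting macrophages 3, 4, 5 and 6. The high arrays of Gnb2 were hemophagocytes 2 and 3 and resting macrophage 3, so its split did not run between the groups (change 0.08, 95% interval -0.16 to 0.31). Gnb4 lay between 6.16 and 6.27 and between 6.22 and 6.42 (change -0.09, 95% interval -0.25 to 0.07), and it had the smallest spread over the 8 arrays of the 10 genes, at 0.25 log2 units. Among the receptor genes, Gnb1 lay between percentiles 38.7 and 60.4 on hemophagocyte arrays and between 37.9 and 45.1 on resting arrays. Gnb4 lay between percentiles 46.4 and 59.8 and between 45.4 and 53.1. At such levels an even signal was not read as an unchanged transcript level.

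Gnai2 and Gnai3 encode the inhibitory alpha subunits that leukocyte chemokine receptors use. Gnai2 read 7.55, 7.60, 7.58 and 7.80 on hemophagocytes 2, 3, 5 and 6 and 7.45, 7.40, 7.60 and 7.57 on resting macrophages 3, 4, 5 and 6. Hemophagocyte 6 was the highest array and the remaining values interleaved (change 0.12, 95% interval -0.05 to 0.30, limma adjusted p = 0.76). Gnai3 read 4.23, 4.29, 4.95 and 3.98 on hemophagocytes and 4.20, 4.13, 4.19 and 4.10 on resting macrophages in the same order. The resting arrays agreed within an SD of 0.05 and the hemophagocyte arrays spread with an SD of 0.42, since hemophagocyte 5 lay highest and hemophagocyte 6 lowest of all 8. The change of 0.21 (95% interval -0.16 to 0.58) rested on hemophagocyte 5, without which it was 0.01. Gnai3 lay between percentiles 6.62 and 17.0 of the receptor genes on hemophagocyte arrays and between 7.12 and 8.79 on resting arrays.

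The subunit genes outside the 10 were taken from a list of all alpha, beta and gamma subunit genes. Of 23, 22 had a probe set with 1 gene symbol and count as measured, and Gnas had none. Of these 22, 0 passed in limma, the unadjusted p was under 0.05 for 1 higher and 0 lower (1.53% and 5.05% of all genes), and the median change was 0.01. The 1 was Gngt2, the gamma subunit of cone transducin. Gngt2 read 8.37 and 8.90 on hemophagocytes 3 and 6, 6.48 and 6.94 on hemophagocytes 2 and 5, and 6.63, 6.47, 6.17 and 6.50 on resting macrophages 3, 4, 5 and 6. The values were thus high on 2 of the 4 hemophagocyte arrays and within or close to the resting range on the others, and the change of 1.23 had a 95% interval of 0.26 to 2.21 (limma adjusted p = 0.75, and 0.35 to 0.97 over the alternative settings). Its interval reached below 0 without hemophagocyte 3 (-0.01 to 2.01) and with an intensity trend and robust prior (-0.15 to 2.62), and without hemophagocyte 6 the change was 0.82. The alpha subunit gene Gna13 had a change of 0.18, the rod transducin alpha subunit Gnat1 one of -0.10 and the neuronal gamma subunit Gng3 one of -0.13, and none of them passed. Without Gngt2, the changes of the other 21 ran from -0.13 to 0.18.

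**Figure D2:**
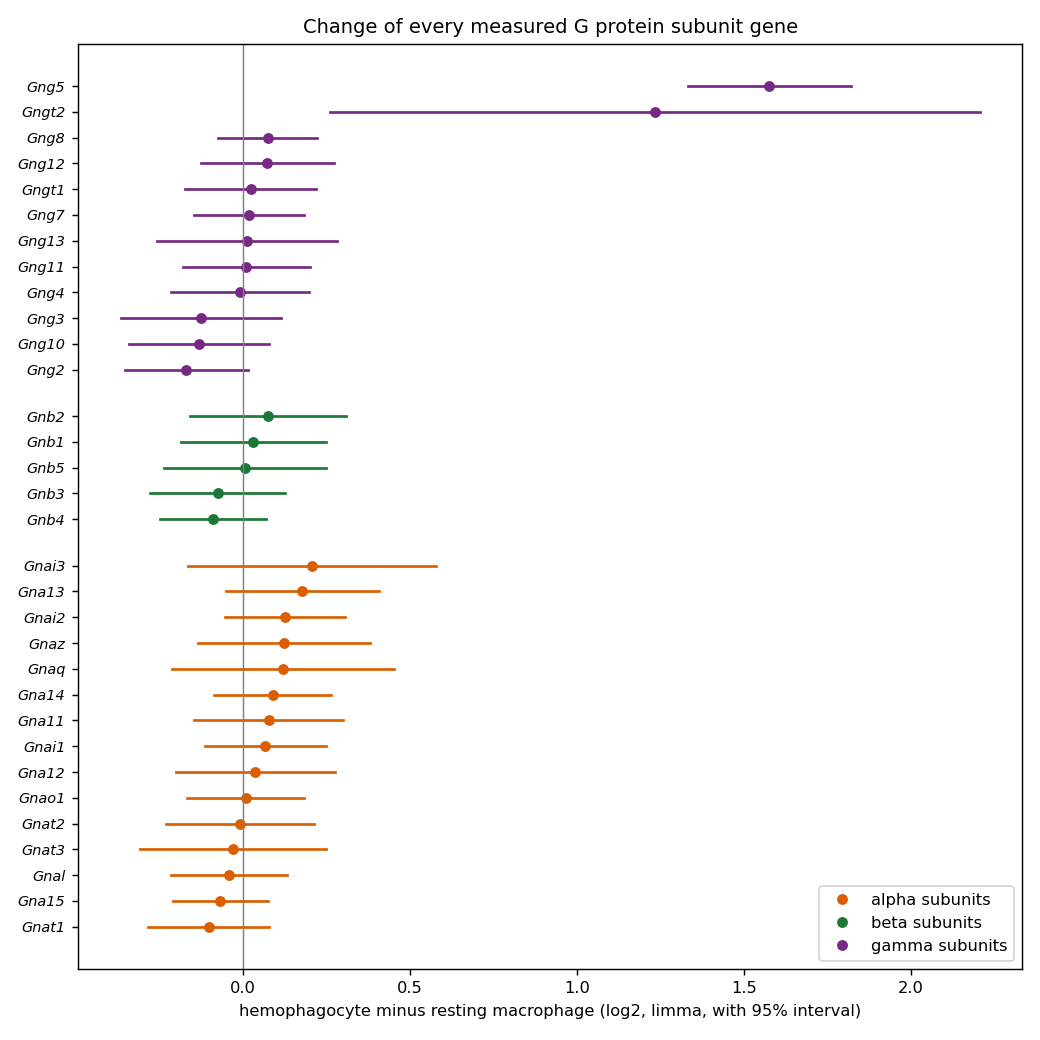
Change of the 32 measured G protein subunit genes (x axis, hemophagocyte minus resting macrophage, log2; points are limma estimates and lines their 95% intervals, from 4 arrays per group), by class. Gng5 at 1.58 and Gngt2 at 1.23 lie far to the right, the second with an interval of 0.26 to 2.21, and the remaining 30 lie between -0.17 and 0.21.

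Genes that act with G proteins were counted over lists of their roles, of which 68 of 74 genes were measured. Of the 68, 0 passed in limma, the unadjusted p was under 0.05 for 2 with higher and 4 with lower values (1.53% and 5.05% of all genes), and the groups did not overlap in 2 with hemophagocytes above and 2 with hemophagocytes below (0.802% and 2.9% of all genes). Their median change was -0.04, and that of all genes was -0.04.

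Among Gi-coupled receptors, 15 of 19 were measured, 3 had changes above 0 and 12 below, and the median was -0.05. C5ar1, the receptor for an anaphylatoxin of complement, read 6.39, 6.69, 6.96 and 6.69 on hemophagocytes 2, 3, 5 and 6 and 6.28, 6.33, 6.10 and 6.35 on resting macrophages 3, 4, 5 and 6. Its hemophagocyte arrays all lay above its resting arrays and the change of 0.42 (95% interval 0.16 to 0.67) did not pass over all genes (limma adjusted p = 0.75). Ccr2, the monocyte chemokine receptor, ran the other way, at 5.38 to 5.61 on hemophagocyte arrays and 5.61 to 5.82 on resting arrays (change -0.20), and the leukotriene receptor Ltb4r1 had a change of -0.16. Neither of them passed.

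The genes of the proteins that build and anchor the dimer had small changes in signal. Chaperones for beta-gamma and alpha assembly had a median change of -0.04 over 11 genes. Cct4 encodes a subunit of the chaperonin that folds beta subunits. It lay at 3.73 to 4.00 on hemophagocyte arrays and 4.02 to 4.27 on resting arrays (change -0.22). On every array Cct4 was below the mean of the receptor genes (5.75 to 6.16), so its change was not read as one in transcript level. Cct8 of the same complex had a change of 0.11, and Pdcl, a cochaperone of beta-gamma assembly, one of -0.14. The 6 genes of prenylation and of processing of the lipid-bearing end had a median change of -0.07. The farnesyltransferase subunit Fntb had a change of -0.14, and the proteases Rce1 and Zmpste24 had changes of -0.13 and 0.08. Of these 17 genes 0 passed.

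Effectors and regulators likewise gave no gene past the threshold. The 17 effectors had a median change of -0.04. Of these, phospholipase Plcb3 had a change of -0.18, the adenylyl cyclase Adcy7 one of -0.16 and Prex1, an exchange factor for Rac that beta-gamma dimers activate, one of 0.18. The median was -0.02 over 13 measured genes of RGS proteins, which speed GTP hydrolysis by alpha subunits, and of other regulators. Of these, Rgs5, Gpsm1 and Rgs19 had changes of -0.24, 0.18 and 0.21. Among 6 measured receptor kinases and arrestins the median was -0.03, with the arrestins Arrb2 and Arrb1 at -0.13 and -0.12 and the kinase Grk6 at 0.12.

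**Figure D3:**
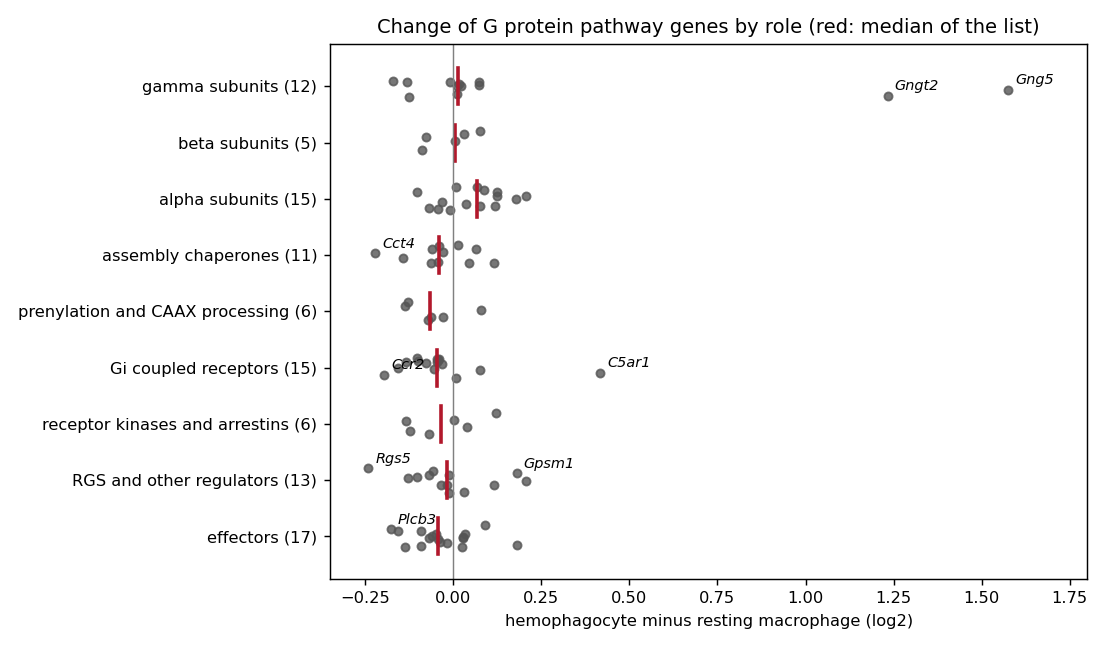
Change of each measured G protein pathway gene (x axis, hemophagocyte minus resting macrophage, log2), by role (y axis, number of measured genes in brackets; points are genes, red bars list medians; vertical scatter only separates points). The list medians lie between -0.07 and 0.07, and Gng5 (1.58), Gngt2 (1.23) and C5ar1 (0.42) are the points farthest to the right.

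The genes most like Gng5 were sought among 563 genes whose values ranged over at least 1 log2 unit, by Pearson correlation over the 8 arrays. They were Saa3 (r = 0.92), the calcium-binding protein gene S100a6 (0.91), Tomm7 of the mitochondrial import pore (0.89), the ribosomal protein gene Rps20 (0.88) and Ftl1, the ferritin light chain (0.84). S100a6 was also the other gene that limma called higher (adjusted p = 0.048), a call lost in 11 of 16 alternative settings, where the adjusted p ran up to 0.66. These r are descriptive: the 8 arrays form 2 groups, and the gap between them carries most of the likeness. With each group's mean removed, r with Gng5 was 0.72 for Tomm7, 0.32 for Rps20, 0.27 for Saa3, -0.18 for S100a6 and -0.44 for Ftl1. The value for Tomm7 came from the hemophagocyte arrays, where both genes were lowest on array 3 (6.68 for Tomm7, against 7.93 to 9.15 on the others). On resting macrophages 3, 4, 5 and 6 Tomm7 read 6.23, 6.27, 6.02 and 6.25, which did not follow the order of Gng5. Ftl1 was highest on that array, at 8.84. Among the 9 other subunit genes, r with Gng5 over the 8 arrays ran from -0.62 for Gnb4 to 0.58 for Gnai2.

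**Figure D4:**
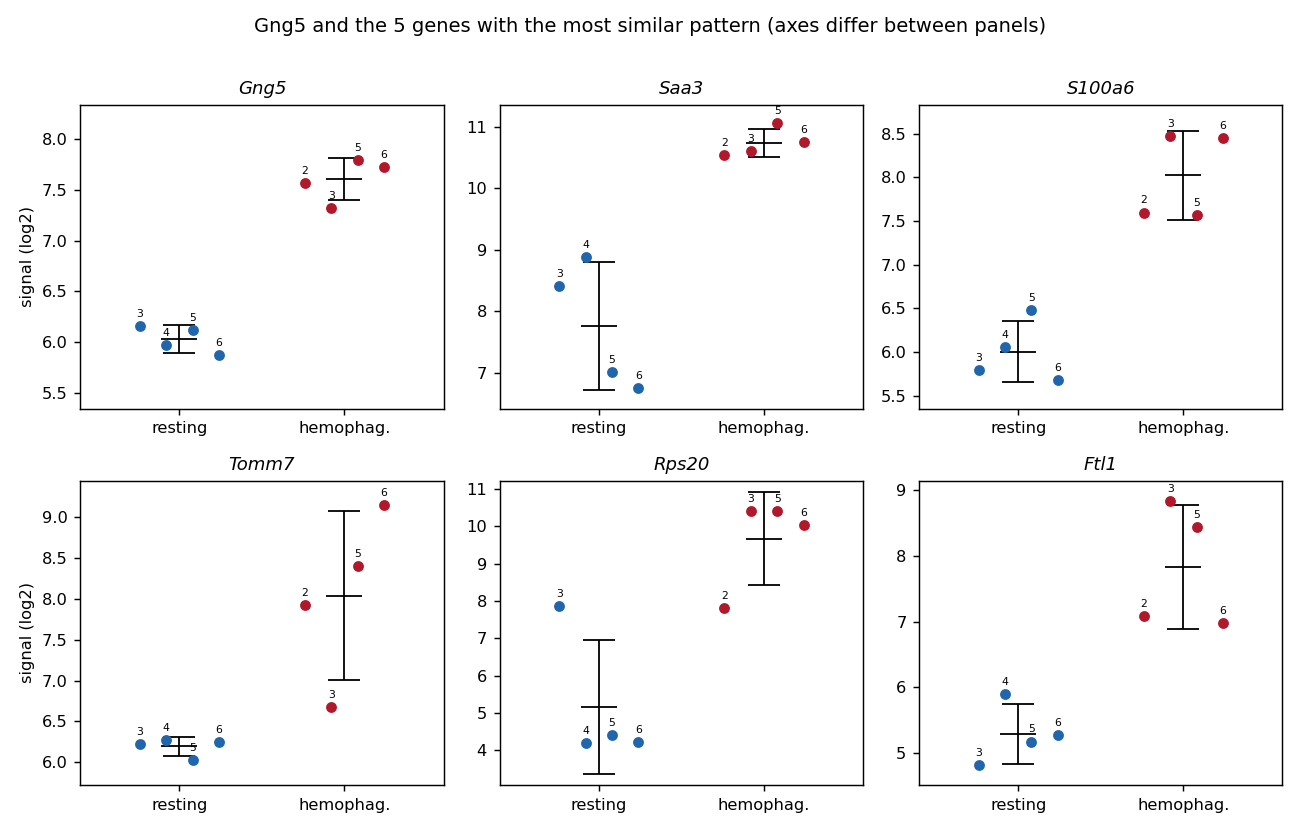
Log2 signal on each array of Gng5 and of the 5 genes with the highest Pearson correlation with it (blue, resting macrophages; red, hemophagocytes; numbers are replicate numbers; bars are mean ± SD, n = 4 per group; axes differ between panels). In Gng5, Saa3, S100a6, Tomm7 and Ftl1 all hemophagocyte arrays lie above all resting arrays, and in Rps20 resting macrophage 3 (7.86) lies above hemophagocyte 2 (7.81).

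Other blood and spleen cell types were followed with 47 marker genes. Of these, limma called 0 (0.01% of all genes higher and 0% lower). The unadjusted limma p was under 0.05 for 0 higher and 1 lower (1.53% and 5.05% of all genes). The mean over 6 platelet markers was 6.34 to 7.11 on hemophagocyte arrays and 6.55 to 6.77 on resting arrays, and over 9 neutrophil markers 6.09 to 6.68 and 6.12 to 6.20. The platelet chemokine Pf4 stood at 10.35 and 9.11 on hemophagocytes 3 and 5, against 6.10 and 5.49 on hemophagocytes 2 and 6, and neutrophil S100a8 at 8.02 and 6.41 against 4.60 and 5.12. The genes of a list did not all move together: S100a9 stood at 9.12 on hemophagocyte 3 but at 6.01 on hemophagocyte 5. The platelet genes Ppbp (4.80) and Clec1b (5.70) were lowest among hemophagocytes on array 3, and Itga2b (6.71) was not. Receptor genes also had their lowest mean there (5.75, against 5.95 to 6.07 on the other hemophagocyte arrays). Ppbp and Clec1b exceeded the 95th percentile of the receptor genes on no array. Of the 9 neutrophil markers 6 had changes below 0, where 36.1% of all genes lay above 0. Gng5 stood at 7.33 and 7.80 on hemophagocytes 3 and 5 and at 7.57 and 7.72 on hemophagocytes 2 and 6. The 32 markers of T, B and NK cells, erythroid cells and endothelium had changes of -0.29 to 0.13. The part of these cells in the Gng5 values was not tested.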

How the data were processed

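The values the authors deposited, 1 for each probe set on each array, were taken as log2 because of their range. The submitters' processing notes name Affymetrix Expression Console 1.1. The sources used here do not give its background correction, probe summary or normalization, nor a genome build. The values were used as deposited. Of 35556 probe sets, 21789 had 1 gene symbol in the platform annotation. The 1621 with several symbols and the 12146 without a listed symbol gave no gene values. A gene found only among those counts as not measured here. The brightest probe set stood for each gene, which left 19938 genes, with no filter on dim genes. Arrays have no read depth, and 4 per group limit the precision.

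Groups and replicate numbers came from sample titles. The test was limma 3.58.1 (R 4.3.3), with lmFit and eBayes and without a block, and p-values were adjusted by Benjamini-Hochberg across all genes, with 0.05 as the threshold. The code was tested on simulated data.

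The genes followed, the pathway and marker lists and the naming rule (all 10 genes, the 4 other subunits and 3 genes per list with the smallest p, the 5 genes most like Gng5, predicted genes and pseudogenes passed over) were chosen with earlier results of these data known. RefSeq (GRCm38.p6) gave chromosomes, gene order and the promoter. Alternatives covered normalization, a filter on dim genes, the variance prior, the probe set rule, arrays left out and a replicate block.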

Additional observations from a re-analysis of the deposited data

Results flagged for a closer look

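In 110 pairs of a named gene and a group, 5 arrays stood alone at one end of their group of 4. Chance gives about 1 such case in 20 pairs, so the 5 are about as many as chance alone gives. Gng2 on resting macrophage 6 (6.64) lay below the other resting arrays (6.89 to 6.90), and Gng10 on resting macrophage 5 (6.51) below the others (6.74 to 6.77). Rps20 was low on hemophagocyte 2 (7.81, the others 10.04 to 10.42) and high on resting macrophage 3 (7.86, the others 4.19 to 4.40). Ccr2 was low on hemophagocyte 3 (5.38, the others 5.58 to 5.61).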

How the results depend on the processing

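Across 16 alternative settings, the change of Gng5 ran from 1.51 to 1.67, and its limma adjusted p was highest with the replicate block (0.040). Nothing is read from its passing, since it was chosen on these arrays. Of the other 9 subunit genes and of the pathway genes outside the 10, 0 passed in each of them. The count of all genes called, 2 in the main setting, was 1 with median centring, cyclic loess or the intensity trend with robust prior. It ran from 1 to 11 when single arrays were left out, with 11 without hemophagocyte 2 and 1 without hemophagocyte 6, resting macrophage 5 or resting macrophage 6. Among the genes that did not pass, Gng11 ran from -0.046 to 0.062 and Gnb1 from -0.032 to 0.097 when single arrays were left out, so their signs are not settled. Gnai3 changed sign to -0.054 without hemophagocytes 3 and 5. With the replicate number as a block, the count of genes called was 7, the change of Gng5 was 1.57 and that of Gnb2 changed sign to -0.017. The cause of these shifts was not tested. Gng11, Gnb1, Gnb4 and Gnai3 were removed by the filter on dim genes and have no value there. The numbers 3, 5 and 6 occur in both groups, and the deviations of same-numbered arrays from their group means correlated at 0.17, 0.07 and 0.12. Between arrays of different numbers the correlations ran from -0.24 to 0.18. The main fit did not take the numbers as pairs, and whether same-numbered arrays share a source was not tested. Subunit genes within the range of the receptor genes allow no statement on presence: 7 of the 10 exceeded the 95th percentile of those genes on no array.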

Other observations

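The position of the Gng5 probe set among its numbered neighbours was uncommon on this array. Of 19852 genes with a RefSeq chromosome, 192 (0.967%) were read by a probe set with 0 of its 10 nearest annotated neighbours on the gene's own chromosome, and the median change of these 192 was 0.05. Of the 20 genes with the smallest p and higher values in hemophagocytes, Gng5 was the 1 in this position, and of the 20 with lower values there were 0. In number order, 1 probe set lies between those of Ctbs and Uox, genes on either side of Gng5 on chromosome 3, and the annotation used here does not name it. Its values were 3.95 to 4.65 on hemophagocyte arrays and 3.84 to 4.56 on resting arrays, a difference of 0.18. RefSeq lists pseudogenes for Gng2 (chromosome 4) and Gnb1 (chromosomes 8 and 14) as well, and the probe sets of both genes had 9 and 10 of their 10 nearest neighbours on the gene's own chromosome.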
